A study of Mus musculus with 4 samples.

Results

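Gene expression in Prom1-CD49f+CD45- liver cells was set against the presorted CD45- liver cells from which they were sorted, and 17099 genes with at least 10 counts in either library were compared, of 21640 with as many counts in any of the 4 libraries of the series. All cells came from C57BL/6 mice with experimental alcoholic hepatitis, so the input carries the same disease model as the sorted cells. The mice ate a high cholesterol fat diet for 40% of their calories and received the other 60% as liquid diet with alcohol through an intragastric tube, with a binge added each week. Livers were digested with collagenase, hepatocytes were reduced by slow centrifugation and CD45+ leukocytes by magnetic beads, which left the presorted CD45- cells. Flow sorting on Prom1 (CD133, prominin-1) and CD49f (the integrin alpha 6 chain) then gave the Prom1-CD49f+CD45- cells. Each population had 1 library, made from pooled RNA of 2 mice, so no difference has a replicate check and no test was run.

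The gate is defined by what the cells lack as much as by what they carry. CD49f is a laminin receptor chain found on duct epithelium, on endothelium, on platelets and their precursors, and on several stromal cells, so a Prom1- CD49f+ gate can hold any of these. Liver endothelium is itself of several kinds: fenestrated sinusoidal cells, which take up waste proteins through scavenger receptors such as stabilin-2, line the lobule, while arteries, portal and central veins and lymphatics carry their own genes. The liver surface is covered by mesothelium, and the portal tracts hold fibroblasts that differ from the vitamin A-storing stellate cells of the sinusoids.

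The Prom1-CD49f+CD45- library held 14670414 counts over all genes and the presorted library 52294143. The difference in depth puts the floor of 3 counts, used for a gene at 0, at 0.212 CPM in the sorted and 0.0675 CPM in the presorted library. Levels below are CPM from library sizes corrected by the trimmed mean of M values (scaled CPM), and levels are compared between genes only per kilobase of exon. The series title names Quant-seq, a method that reads transcript 3′ ends, whereas the labels' protocol describes a fragmented whole-transcript library; if reads came from 3′ ends, levels per kilobase would understate long transcripts, and which applies was not tested. Mitochondrially encoded genes took 4.0% of the counts in the sorted cells and 4.03% in the input. A pair of repeat-like gene models, Gm26870 and Gm10800, took 2.80% against 0.00686%, and at least 1 count was found for 27.1% of 1509 chemosensory receptor genes against 12.5%. Of the 38 chemosensory genes compared, 31 were called higher, and of 467 lincRNA genes 154 (33.0%), so the higher calls include many low-level genes of these classes. Low-input libraries were amplified for 12 to 14 PCR cycles and others for 6 to 10, per the labels, which do not name them, and the part of amplification in these counts was not tested. Intervals and floors cover counting error only, and reads amplified by PCR without molecular identifiers are not independent molecules. A fold against 0 counts is given both by the floor and by the near bound of the 2-sided exact interval, which is the lower of the pair.

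Calls of higher or lower were made where the whole exact 95% interval of a gene's ratio lay beyond 2-fold. By this rule 1698 genes (9.93%) were higher and 3056 (17.9%) lower in Prom1-CD49f+CD45- cells, and the median log2 ratio over all genes compared was -0.16. These shares are the background for each list below. Higher genes made up 35.7% of the calls, against 48.1% with library totals, 47.0% with DESeq2 size factors, 44.9% with factors from these 2 libraries alone and 62.0% with upper-quartile factors. Each of those scalings raises all log2 ratios by a constant of 0.136 to 0.389. All 1698 higher calls were kept under each of them, whereas a lower call whose near bound is under 2.62-fold is lost under the upper-quartile factors. Ratios also fell with transcript length, as described at the end, and a call said to hold without the length trend is one made again after that trend was removed; 1201 higher calls (7.09% of genes with a length) and 2419 lower calls (14.3%) did.

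**Figure D1:**
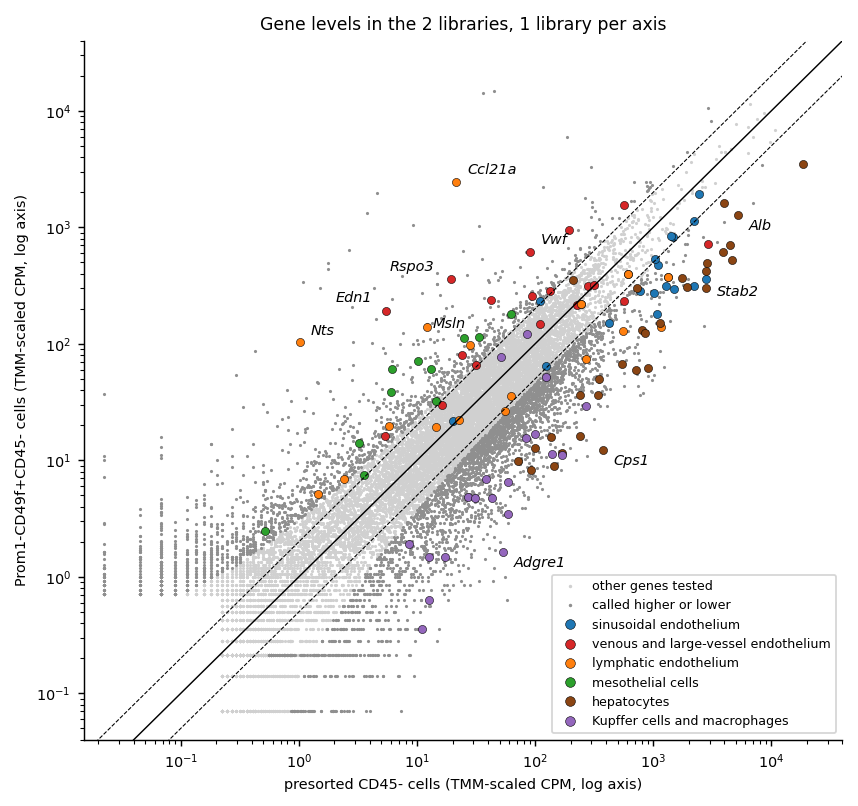
Scaled CPM of each of the 17099 genes in the presorted (x axis) and the Prom1-CD49f+CD45- library (y axis), both on log axes, with genes at 0 set at the floor of 3 counts. The solid line marks equal levels and the dashed lines 2-fold; mesothelial genes lie above the lines, most hepatocyte and Kupffer cell genes below, and most sinusoidal genes below the line of equality, from Clec4g (1.27-fold lower) near it to Stab2 (7.85-fold lower), with Wnt2 (235 against 109) above it.

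The genes of the sorted proteins stood below their levels in the input. Prom1 stood at 31.1 scaled CPM (exact 95% Poisson interval 28.2 to 34.1) against 67.1 (64.7 to 69.6), and was 2.16-fold lower (1.95 to 2.39), not called. Itga6, which encodes CD49f, stood at 50.5 against 110 scaled CPM and was called lower, at 2.19-fold (2.02 to 2.37), but not without the length trend. Ptprc, the gene of CD45, stood at 3.60 against 21.0 scaled CPM and was called lower, at 5.82-fold (4.39 to 7.88). Selection for CD49f protein was thus not matched by more Itga6 transcript. In the other libraries Prom1 stood at 355 scaled CPM in Prom1+CD49f+CD45- cells. In that labelled Prom1+CD49f+CD45+, Prom1 stood at 11.4 and Ptprc at 14.5. Both levels were below the input, while Itga6 there, at 127, was above it. As Prom1 and Ptprc go against its label, the library is named by that label throughout. Of 21 integrin chains and partners of CD49f, 8 were called lower and 1 higher, with a median log2 ratio of -0.68. The exception was the tetraspanin gene Cd9, at 1635 against 302 scaled CPM, 5.41-fold higher (5.30 to 5.53). The laminin-receptor partner chain Itgb4 (15.1 against 12.6) and the tetraspanin Cd151 (27.0 against 21.9) were not called.

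The endothelial genes divided both between and within vessel types. Markers shared by all endothelium stood near the input as a set: of 20, 3 were called higher and 4 lower, and the median log2 ratio was -0.03. Cdh5, the gene of the endothelial junction protein VE-cadherin, stood at 175 scaled CPM in the sorted cells and 163 in the input, and Pecam1 (CD31) at 362 and 550, neither called. The summed level of the 20 genes was 7036 scaled CPM in the sorted cells and 7692 in the input, against 244 in Prom1+CD49f+CD45- cells. In sum, the shared endothelial transcripts were about as abundant in the sorted cells as in the input. The median of the set was above 0 under the other scalings (0.10 to 0.36) and -0.28 without the length trend. As scaled, the 10 shorter genes had a median log2 ratio of 0.31 and the 10 longer genes -0.83, so the set median spans a split by length.

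Sinusoidal markers were mostly lower. Of 20, 10 were called lower and 1 higher (median log2 ratio -1.10, and -0.97 without the length trend). The scavenger receptor gene Stab2 (chromosome 10, 86841198 to 87008025, minus strand, mm10) stood at 358 scaled CPM in the sorted cells and 2812 in the input. The VEGF receptor gene Kdr stood at 315 and 2230, and the mannose receptor gene Mrc1, 4.07-fold lower (3.95 to 4.20), at 317 and 1288. Not all sinusoidal genes moved so far. The lectin gene Clec4g, at 1932 against 2464 scaled CPM, was 1.27-fold lower (1.26 to 1.29) and not called, and neither were Lyve1 (399 against 613) and Cd36 (1143 against 2229). The 1 higher gene was Wnt2, a Wnt ligand of central sinusoids, at 235 against 109, a call that does not hold without the length trend. Per kilobase Clec4g stood at 785 scaled CPM in the sorted cells, far above Stab2 at 40.9, while in the input they stood at 1001 and 321. The library labelled Prom1+CD49f+CD45+ held the highest summed level of these 20 genes, at 30932 scaled CPM, against 9248 in the sorted cells and 23271 in the input.

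Arterial genes were divided and venous genes mostly on the higher side. Of 15 arterial markers 8 were called higher and 2 lower (median log2 ratio 1.30, and 0.61 without the length trend), and 7 of the higher calls hold without that trend. The other 7 ratios were below 1, and the summed level of the 15 genes was 3700 scaled CPM in the sorted cells and 3699 in the input. Gja5 (chromosome 3, 96904693 to 97077416, plus strand), the connexin-40 gene of arterial endothelium, stood at 212 scaled CPM against 19.8, and was 10.8-fold higher (9.97 to 11.6). The Notch target gene Hey1 stood at 20.8 against 3.22, and Bmx, a tyrosine kinase gene of large arteries, at 25.4 against 1.30. Sox17, a transcription factor gene of arterial endothelium, was 3.67-fold higher at 378 against 103. These 4 genes lay at or below 3.79 scaled CPM in Prom1+CD49f+CD45- cells except Sox17, at 4.14. Other arterial genes did not follow: the Notch ligand genes Dll4 (123 against 211) and Jag1 (164 against 190) were not called, and the semaphorin receptor gene Nrp1 was lower at 508 against 1278, a call lost without the length trend and under the upper-quartile scaling.

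Among 18 venous and large-vessel markers 10 were called higher and 2 lower, with a median log2 ratio of 1.27 (1.31 without the length trend) and summed levels of 6575 against 5624 scaled CPM. Vwf (chromosome 6, 125546774 to 125686679, plus strand), the von Willebrand factor gene of large vessels and platelets, stood at 618 scaled CPM against 90.3, and was 6.84-fold higher (6.59 to 7.10). Edn1 (chromosome 13, 42301476 to 42307990, plus strand), the gene of the vasoconstrictor endothelin-1, stood at 190 against 5.45 and was 34.9-fold higher (30.6 to 40.0). Rspo3, which encodes a secreted amplifier of Wnt signals made by central vein endothelium, stood at 362 against 19.6. No other library came near these levels: Edn1 reached 6.04 scaled CPM and Rspo3 14.2 in the higher of the other 2 sorted libraries. The adhesion genes of activated and venular endothelium were higher too, with Selp (P-selectin) at 79.5 against 24.1 and Sele (E-selectin) at 16.3 against 5.31. Plvap, which forms diaphragms of vessel pores, stood at 1548 against 562, a higher call that does not hold without the length trend. The venous receptor gene Ephb4, at 232 against 564, and the interleukin-6 co-receptor gene Il6st, at 713 against 2914, were lower.

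**Figure D2:**
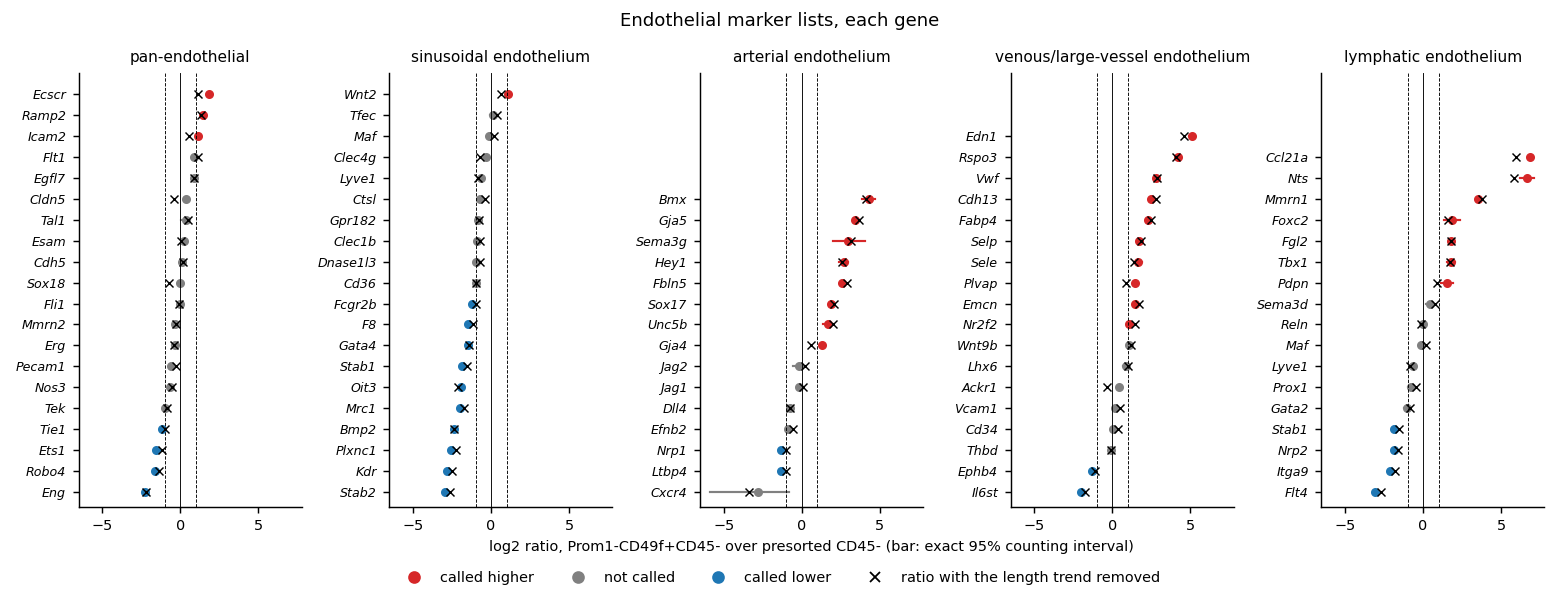
Log2 ratio of Prom1-CD49f+CD45- over presorted CD45- for each member of the 5 endothelial lists (x axes), with exact 95% counting intervals as bars, and as a cross the ratio after removal of the length trend; dashed lines mark 2-fold. Called genes lie mostly to the left among sinusoidal markers (10 of 20 lower) and mostly to the right among arterial (8 of 15 higher) and venous or large-vessel markers (10 of 18 higher).

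Lymphatic markers split within the list. Of 17, 7 were called higher and 4 lower, and the median log2 ratio was -0.02, which turns positive under the other scalings (0.11 to 0.37) and without the length trend (0.21). Ccl21a (chromosome 4, 42772860 to 42773993, minus strand), the gene of a chemokine that draws CCR7-bearing leukocytes to lymphatics, stood at 2473 scaled CPM in the sorted cells and 21.4 in the input. It lay at 5.66 and 6.89 in the other 2 sorted libraries. Near-identical copies of Ccl21a lie on the same chromosome, so reads may be shared among them; the gene model Gm13304 stood at 1048 against 9.27, and the gene overlaps 4930578G10Rik on the other strand, which was not called. Mmrn1, the gene of the matrix protein multimerin-1 of lymphatics and platelets, stood at 139 against 12.2 and was 11.4-fold higher (10.3 to 12.5), and the neurotensin gene Nts at 103 against 1.01. Foxc2, a transcription factor gene of lymphatic valves, was 3.58-fold higher (2.52 to 5.09) on 73 against 64 counts. The lymphatic regulator and receptor genes differed from these. Prox1 stood at 35.7 against 62.0 and was not called, and Flt4, the VEGF-C receptor gene shared with sinusoids, stood at 138 against 1167 and was 8.43-fold lower (8.06 to 8.82). Prox1 was highest in Prom1+CD49f+CD45- cells, at 345.

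Mesothelial genes formed the list with the highest median of the 43. Of 11, 9 were called higher and none lower (median log2 ratio 2.17, and 1.69 without the length trend), and the 9 calls hold without that trend. Msln (chromosome 17, 25748613 to 25754378, minus strand), the mesothelin gene, stood at 115 scaled CPM against 33.8, and was 3.39-fold higher (3.16 to 3.64). The uroplakin genes Upk3b and Upk1b, known in mesothelium as well as bladder, stood at 112 against 24.8 and at 70.7 against 10.2. Nkain4, a gene of a sodium pump-interacting protein, stood at 61.1 against 6.10 and was 10.0-fold higher (8.73 to 11.5), and Rspo1, a Wnt amplifier, at 38.3 against 6.03. The 9 called genes include Gpm6a, which was higher still in Prom1+CD49f+CD45- cells, at 217 against 180 scaled CPM in the sorted cells. The summed level of the list was 693 scaled CPM in the sorted cells, 178 in the input, 233 in Prom1+CD49f+CD45- cells and 22.9 in the library labelled Prom1+CD49f+CD45+.

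Portal fibroblast markers were divided, with 6 of 16 called higher and 2 lower (median log2 ratio 1.01). Fbln2 (chromosome 6, 91212455 to 91272540, plus strand), which encodes the elastic-fibre glycoprotein fibulin-2, stood at 458 scaled CPM against 75.2, and was 6.09-fold higher (5.84 to 6.35). Mgp, an inhibitor of calcification, stood at 108 against 9.97, and Igfbp6, an IGF-binding protein gene, at 104 against 13.9. The surface marker gene Thy1 stood at 4.87 against 0.315. Against these, the fibroblast matrix genes Dpt (2 counts against 178) and Mfap4 (0 counts against 146) were lower, Dpt at 28.4-fold (7.74 to 236) and Mfap4 at least 15.5-fold by the floor, with a near bound of 12.4-fold. Elastin itself, Eln, stood at 6.78 against 4.66 and was not called.

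Stellate cell genes were mostly lower. Of 18 stellate markers 10 were called lower and none higher (median log2 ratio -1.86). Lrat, the enzyme that stores vitamin A as ester, stood at 4.17 scaled CPM against 37.4, and was 8.98-fold lower (6.93 to 11.8). Pdgfrb, the platelet-derived growth factor receptor gene of stellate cells and pericytes, stood at 0.848 against 28.3 and was 33.4-fold lower (19.1 to 64.9), and Hgf, the hepatocyte growth factor gene, stood at 27.3 against 185. The proteoglycan gene Dcn, at 530 against 294, was on the higher side and not called. Among 12 smooth muscle and pericyte markers 1 was higher and 2 lower, shares near those of all genes. Acta2, the smooth muscle actin gene, stood at 5.79 against 1.87 and was 3.10-fold higher (2.26 to 4.26) on 82 and 83 counts, a call that does not hold without the length trend.

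Platelet and megakaryocyte genes were higher at low level. Of 18, 10 were called higher and 1 lower (median log2 ratio 1.72), and 6 of the higher calls hold without the length trend. Of these genes Mmrn1, Selp and Itgb3 are also made by endothelium. The platelet chemokine gene Ppbp stood at 9.68 scaled CPM against 1.26 and Gp1bb, a chain of the platelet receptor for von Willebrand factor, at 4.94 against 0.698. The platelet integrin gene Itgb3 was 3.25-fold lower (2.89 to 3.67), at 21.5 against 70.1, and its partner Itga2b, at 11.4 against 14.9, was not called. The level of Vwf lay far above that of these genes: per kilobase it stood at 38.5 scaled CPM. The part that platelet RNA has in the Vwf ratio was not tested.

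Duct epithelial genes remained in the sorted cells although the gate excludes Prom1. Of 28 cholangiocyte markers 9 were called higher and 2 lower (median log2 ratio 0.56), and 2 higher calls hold without the length trend (median 0.25). Krt7, a duct keratin gene, stood at 152 scaled CPM against 41.2 and was 3.68-fold higher (3.45 to 3.92). Spp1 (osteopontin) stood at 8188 against 3103 and Epcam at 274 against 107, both higher and both lost without the trend. Sox9 (95.5 against 91.6), a duct transcription factor gene, was not called, nor was Cdh1 (E-cadherin), at 183 against 374. In Prom1+CD49f+CD45- cells these stood higher, with Spp1 at 19684, Epcam at 670 and Sox9 at 693. The summed level of the 28 genes was 11293 scaled CPM in the Prom1- cells, 5193 in the input and 30832 in Prom1+CD49f+CD45- cells. Most of each sum was Spp1 alone, at 8188, 3103 and 19684, so the sums mainly follow that 1 gene. The part of this epithelial RNA in other results was not tested.

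Hepatocyte and leukocyte genes were lower than in the input. Of 30 hepatocyte markers 29 were called lower and none higher (median log2 ratio -2.84). The albumin gene Alb stood at 1265 scaled CPM against 5267, the hemopexin gene Hpx at 521 against 4610 and Cps1, which starts the urea cycle, at 12.2 against 374. The exception was Glul, the glutamine synthetase gene of pericentral hepatocytes, at 354 against 211 and not called. Hepatocyte transcripts were still present: Trf, the transferrin gene, still stood at 3497 scaled CPM against 18473. In libraries of many cells, fewer cells of a type and less RNA per cell cannot be told apart.

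Macrophage and granulocyte genes were mostly lower as well. Of 20 Kupffer cell and macrophage markers 18 were called lower and none higher (median log2 ratio -3.14), among them Clec4f, a lectin gene of Kupffer cells, at 11.3 against 139. Adgre1 (F4/80) stood at 1.62 against 53.3. Fcer1g (76.6 against 51.7) and Cd14 (122 against 85.6), which other cells also express, were on the higher side and not called. Of 15 neutrophil markers 11 were lower and 1 higher (median log2 ratio -3.89), with the granule gene Mpo (myeloperoxidase) at 48.7 against 980 and S100a8 at 5.01 against 80.3. The higher gene was Cxcr2, at 6.29 against 2.21, a call not held without the length trend. The costimulatory gene Cd86 and the purine receptor gene P2ry13, both of myeloid cells, had 0 counts against 293 and 255, so by the floor they were at least 31.1-fold and 27.1-fold lower, with near bounds of 25.1-fold and 21.9-fold. Of 16 T and NK cell markers 4 were lower and 1 higher, of 11 B and plasma cell markers 6 were lower, and of 11 dendritic and mast cell markers 7 were lower and 1 higher. The defining T cell gene Cd3e had 0 counts in the sorted cells and 11 in the deeper input, too few for a call, and its interval includes no change.

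Erythroid genes were split. The globin genes Hba-a2 and Hbb-bs stood at 2.19 against 89.2 and at 2.26 against 79.8 scaled CPM, with 7 of 13 erythroid markers lower and 2 higher. The carbonic anhydrase gene Car1 stood at 60.5 against 2.18 and was 27.7-fold higher (22.5 to 34.6). Near-identical globin genes may share reads.

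**Figure D3:**
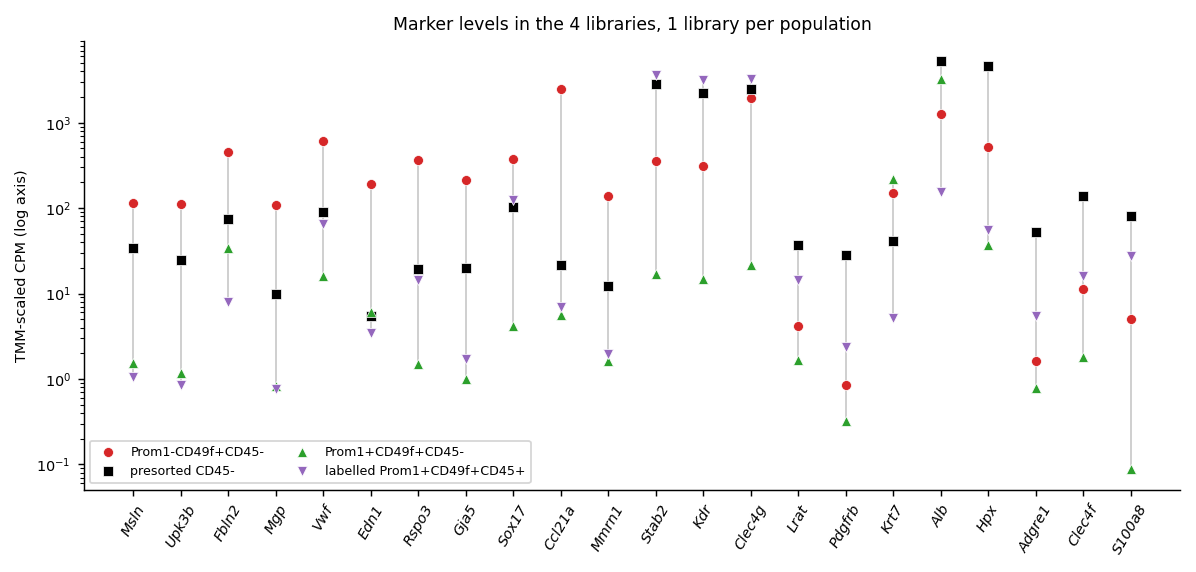
Scaled CPM (log axis) of 22 marker genes in each of the 4 libraries, 1 point per library. From Msln to Mmrn1 the Prom1-CD49f+CD45- library is highest, with Ccl21a at 2473 against at most 21.4 elsewhere; from Stab2 to Clec4g the library labelled Prom1+CD49f+CD45+ is highest; and for Alb, Hpx, Adgre1, Clec4f and S100a8 the presorted library is.

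Secreted signals and their receptors were described by pathway. In the Wnt pathway, in which R-spondins raise the response to Wnt ligands, 8 of 22 genes were called higher and 2 lower (median log2 ratio 0.52). Beside Rspo3 and Rspo1 these were the ligand genes Wnt4 (30.2 against 12.5 scaled CPM), Wnt2b (1.13 against 0.225), Wnt10a (3.60 against 0.608) and Wnt2, the antagonist gene Dkk2 (2.40 against 0.293), and Sfrp2 (37.5 against 5.85), which encodes a Wnt-binding protein. The 2 lower genes were Lgr4, an R-spondin receptor gene, at 11.7 against 39.3, and Notum, whose enzyme inactivates Wnt ligands, at 3.96 against 12.1. The target gene Axin2 was at 0.989 against 0.788 and not called.

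The TGF-beta and BMP pathway was split evenly, with 7 of 24 genes higher and 7 lower (median log2 ratio -0.40). Ligands went in both directions. Bmp4 stood at 28.5 scaled CPM against 2.45 and was 11.6-fold higher (9.37 to 14.5), and the activin subunit gene Inhba at 65.2 against 6.77, whereas Bmp2, the endothelial ligand of the iron pathway, stood at 294 against 1503 and was 5.11-fold lower (4.95 to 5.27). Bmp6, with the same role, stood at 31.4 against 114. The BMP target genes Id1 (338 against 66.3) and Id2 (1173 against 345) were higher, and the co-receptor genes Eng (164 against 788) and Tgfbr3 (73.2 against 373) lower. Among angiogenic genes, 2 of 21 were higher, both ligands, and 6 lower, all receptors or co-receptors (median log2 ratio -0.39, which reached 0.00 under the upper-quartile scaling). The share higher, 9.52%, was near the 9.93% of all genes. Under the upper-quartile scaling 7 were called higher and 3 lower, so the balance turned round. Without the length trend 4 of the 6 lower calls hold. Vegfc, the lymphatic growth factor gene, stood at 168 against 15.9 and was 10.5-fold higher (9.66 to 11.4). Pgf, the placental growth factor gene, had 51 counts against 0, at least 53.4-fold higher by the floor, with a near bound of 41.8-fold. The receptor genes of VEGF-C, Kdr and Flt4, were lower, as given above, while Flt1, which binds placental growth factor, stood at 252 against 135 and was not called. In the Notch pathway 2 of 16 genes were higher, Hey1 and Hes1, and 3 lower, with Notch4 at 32.9 against 142.

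Of 23 chemokine and adhesion genes 10 were higher and 3 lower (median log2 ratio 0.44). The monocyte chemokine gene Ccl2 stood at 72.3 scaled CPM against 15.1, and the neutrophil chemokine genes Cxcl1 at 96.3 against 25.1 and Cxcl5 at 27.2 against 4.52. Cxcl12, the stromal ligand of CXCR4, was 4.19-fold lower (3.86 to 4.56), at 42.7 against 179, and Vcam1 (313 against 281) and Icam1 (130 against 151) were not called. Among 18 interleukin and alarmin genes 4 were higher and 5 lower, with the alarmin gene Il33 at 175 against 57.7 and Il15 at 31.3 against 5.92. Of 26 interferon response genes 6 were higher and 2 lower (median log2 ratio 0.62), but only Xaf1, at 90.6 against 27.3, is still called higher without the length trend. Of 17 antigen presentation genes 4 were higher and 1 lower. They include the class II genes H2-Ab1 (274 against 92.0) and H2-Aa (96.2 against 39.2), whose calls hold without that trend.

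Matrix genes differed by family. Of 33 matricellular and elastic-fibre genes 8 were higher and 8 lower (median log2 ratio 0.54), and under the upper-quartile scaling 16 and 6. Higher were the elastic-fibre genes Fbln5 (77.1 against 12.9 scaled CPM), Mfap5 (15.4 against 2.34) and Mfap2, at 13.6 against 1.01 and 13.4-fold (9.64 to 19.0), and the matricellular gene Ccn1, at 747 against 120. Fibronectin, Fn1, stood at 178 against 774, and the elastic-fibre regulator gene Emilin1 at 113 against 744, both lower. Of 20 fibrillar collagens and crosslinking enzymes 7 were lower and 2 higher (median log2 ratio -0.80), with Col1a1 at 8.76 against 51.8 and Col3a1 at 71.2 against 224, and the 2 higher genes were the crosslinking enzymes Lox and Loxl1. Of 22 basement membrane genes 12 were lower and none higher (median log2 ratio -1.20), and 6 of those calls hold without the length trend, among them Col4a1 (278 against 1149), Col4a2 (190 against 661) and Col18a1 (49.4 against 308). The laminin chain genes Lama5 (55.8 against 45.9) and Lama2 were not called. Among 23 metalloproteinases and inhibitors 5 were higher and 8 lower, with the inhibitor gene Timp1 at 52.1 against 9.05.

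Of 20 genes that control clotting at the vessel wall 9 were higher and 3 lower (median log2 ratio 0.56). Plat, the tissue plasminogen activator gene, stood at 108 scaled CPM against 14.8, and was 7.29-fold higher (6.65 to 8.0). Entpd1 (CD39), which breaks down platelet-activating ATP and ADP, stood at 132 against 23.2, the protein C receptor gene Procr at 35.5 against 8.82, and F3, the tissue factor gene, at 55.2 against 14.5. Lower were F8, made by sinusoidal endothelium, at 283 against 779, Pros1 (364 against 792) and Adamts13, the stellate cell protease that cuts von Willebrand factor, at 0.424 against 5.72. Thbd (thrombomodulin), at 217 against 227, was not called.

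Of 37 endothelial and mesenchymal transcription factor genes 12 were higher and 6 lower (median log2 ratio 0.09). Beside Sox17 and Foxc2 the higher genes included Meox1 (125 against 12 counts, 32.7-fold, 18.1 to 65.0), Meox2 (19 counts against 0, at least 19.9-fold by the floor and 14.7-fold by the near bound), Osr1 (32.9 against 3.83 scaled CPM) and Nr2f2 (283 against 134), which specifies veins. The lower genes included Gata4, the sinusoidal and stellate regulator gene, at 152 against 423, Tbx3, at 1.41 against 14.5, and the stellate factor gene Lhx2. Genes of factors shared by all endothelium, such as Fli1 (133 against 138) and Sox18 (271 against 275), were not called.

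Immediate early genes, which cells switch on within minutes of a stimulus, gave 12 higher calls and 0 lower calls among 23 members (median log2 ratio 1.21, and 1.06 without the length trend, when 1, Jund, is called lower). Fosb, a subunit gene of the AP-1 transcription factor, stood at 91.5 scaled CPM against 5.15 and was 17.8-fold higher (15.4 to 20.5). Atf3, a stress-response factor gene, stood at 353 against 39.9, Klf4 at 173 against 16.9 and Fos at 1508 against 304. The phosphatase gene Dusp1, at 2324 against 970, was 2.40-fold higher (2.36 to 2.43), while Btg2, an antiproliferative gene, stood at 280 against 169 and was not called. In the other libraries Fosb was at 275 in Prom1+CD49f+CD45- cells and 47.8 in the library labelled Prom1+CD49f+CD45+, so the input was the lowest of the 4. The summed level of the list was 12708 in the sorted cells, 5387 in the input, 18956 in Prom1+CD49f+CD45- cells and 9477 in the library labelled Prom1+CD49f+CD45+.

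Promoter windows of these genes were searched for 3 sequences through which such genes are known to be switched on: the cyclic AMP response element TGACGTCA, the AP-1 site TGANTCA, each on both strands, and the CArG box of serum response factor. No TGACGTCA holds a TGANTCA within it. RefSeq windows of 300 bases (250 before to 50 after the start, GRCm38.p6) were found for 19 of the 23. TGACGTCA was in 2 of them (Dusp1 and Btg2), the CArG box in 1 (Zfp36) and TGANTCA in 0. Over all 27025 windows the shares were 1.88%, 1.57% and 7.93%, and over the 12239 windows of genes compared here 2.99%, 1.32% and 5.63%. Windows are shown for Dusp1 (chr17:26508423-26508722, minus strand), called higher, for Btg2 (chr1:134079106-134079405, minus strand), not called, both with TGACGTCA in capitals, and for Fosb (chr7:19309996-19310295, minus strand), the member with the highest ratio, with no match; each is written 5′ to 3′ along its gene.
Dusp1: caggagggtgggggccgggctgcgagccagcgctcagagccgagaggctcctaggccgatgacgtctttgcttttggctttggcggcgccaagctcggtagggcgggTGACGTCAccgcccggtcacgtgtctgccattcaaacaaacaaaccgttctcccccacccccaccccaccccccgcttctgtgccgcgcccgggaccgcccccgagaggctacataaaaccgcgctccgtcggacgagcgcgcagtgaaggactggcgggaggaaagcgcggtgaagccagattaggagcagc
Btg2: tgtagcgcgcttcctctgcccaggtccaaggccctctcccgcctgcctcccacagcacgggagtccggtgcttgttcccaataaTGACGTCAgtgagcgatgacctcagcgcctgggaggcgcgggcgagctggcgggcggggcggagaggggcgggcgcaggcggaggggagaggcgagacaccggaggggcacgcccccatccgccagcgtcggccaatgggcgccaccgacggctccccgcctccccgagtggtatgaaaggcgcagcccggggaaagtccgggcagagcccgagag
Fosb: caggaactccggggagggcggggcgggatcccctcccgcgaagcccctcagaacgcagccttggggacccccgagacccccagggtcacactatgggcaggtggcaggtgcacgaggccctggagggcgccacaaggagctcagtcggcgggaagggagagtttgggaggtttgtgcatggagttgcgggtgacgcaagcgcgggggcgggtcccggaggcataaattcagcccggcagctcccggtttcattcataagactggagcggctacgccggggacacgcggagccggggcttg
The element lies at the bases numbered -143 to -136 from the start in Dusp1 and -166 to -159 in Btg2, so the same letters stand in a gene that was called and in a gene that was not. A match describes these letters only.

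As scaled, metabolic and proliferation genes were called lower far more often than higher. Of 21 lipid synthesis genes 14 were lower and none higher (median log2 ratio -1.46), with Scd1, the desaturase gene, at 43.9 scaled CPM against 742 and Fasn, the fatty acid synthase gene, at 11.2 against 60.4. Of 20 lipid uptake and droplet genes 7 were lower and 3 higher, the latter led by the endothelial fatty acid carrier gene Fabp4, at 950 against 192. Of 20 alcohol, aldehyde and retinoid oxidation genes 12 were lower, with the alcohol dehydrogenase gene Adh1 at 219 against 1119, and 1 was higher, the mesothelial retinoic acid enzyme gene Aldh1a2, at 14.1 against 3.22. Of 19 complement genes 13 were lower and 1 higher, with C3 at 1112 against 3957. Many of these genes are made by hepatocytes, whose marker list had a summed level of 11573 scaled CPM in the sorted cells and 60965 in the input, and the part of hepatocyte RNA in these ratios was not tested. Of 26 cell cycle genes 12 were lower and none higher (median log2 ratio -1.25), with Top2a at 13.7 against 73.3 and Mki67 at 13.8 against 46.1, whereas the cyclin gene Ccnd1 (65.8 against 64.1) was not called. Under the upper-quartile scaling 9 of the cell cycle genes were called lower and 5 higher.

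**Figure D4:**
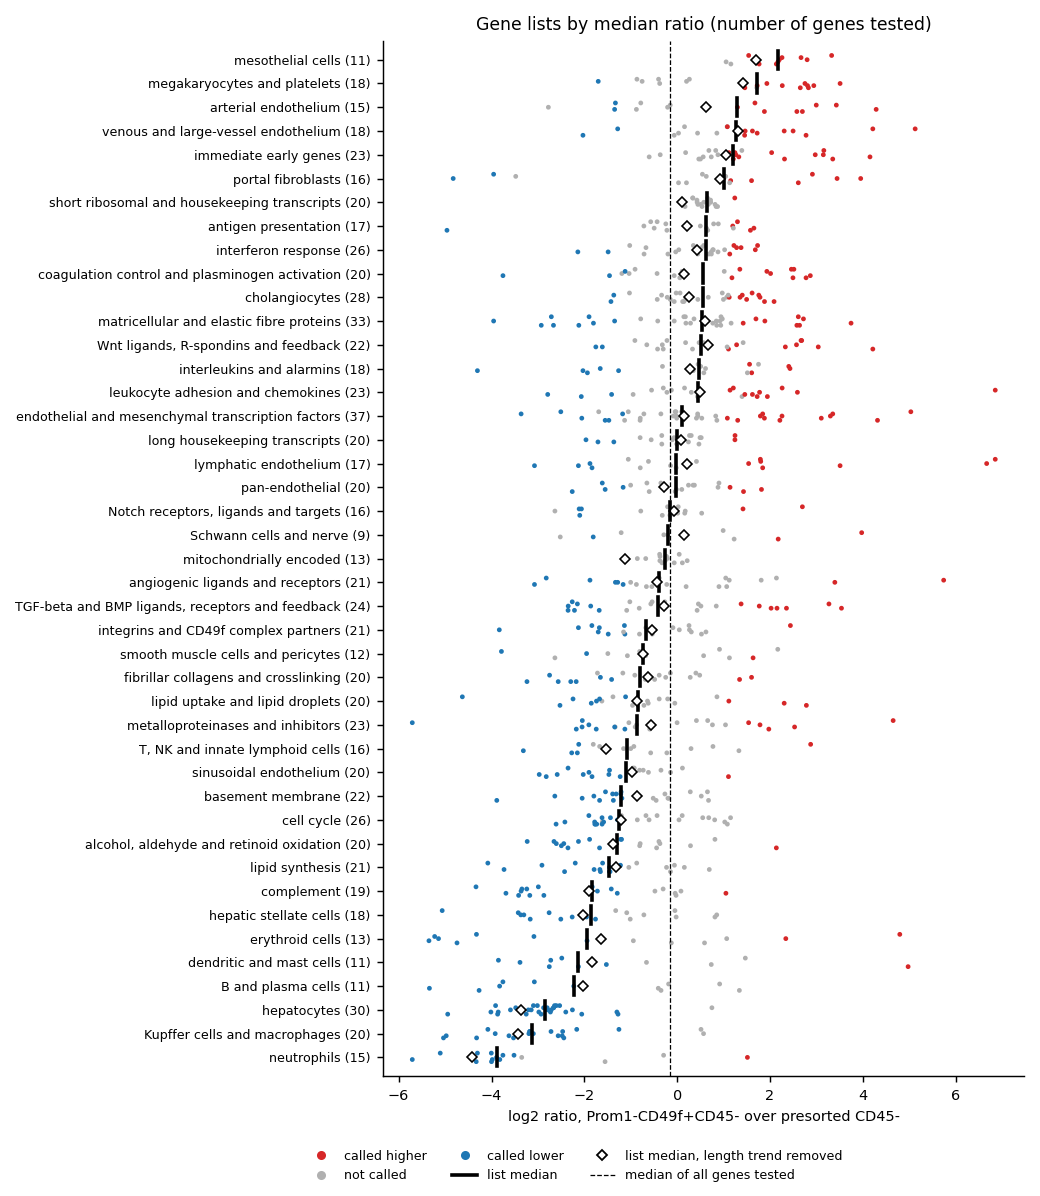
Log2 ratio of each tested member of the 43 gene lists (x axis), coloured by call, with the list median as a bar and the median without the length trend as a diamond; the dashed line is the median of all genes compared (-0.16). Lists run from mesothelial cells (median 2.17) at the top to neutrophils (-3.89) at the bottom.

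Most of the genes farthest above the input had few or no counts there. By the near bound of the interval, among genes with at least 100 counts in either library whose call holds without the length trend, the higher genes were led by Nepn (nephrocan), with 158 counts against 0, at least 165-fold higher by the floor and 133-fold by the near bound, and by Ccl21a. Cthrc1, a secreted collagen-repeat protein gene of activated fibroblasts, had 155 counts against 1, a ratio of 486-fold (86.0 to 19339). Pthlh, the gene of the parathyroid hormone-related protein, had 226 counts against 3 (236-fold, 79.9 to 1155). Tcf15, a transcription factor gene of capillary endothelium, had 148 counts against 3 (155-fold, 52.0 to 759), and Htr2b, a serotonin receptor gene, 196 against 8. Stmn2, a tubulin-binding protein gene, stood at 39.8 scaled CPM against 0.788, and Rsad1 at 304 against 4.30 (70.7-fold, 61.1 to 82.1). In the other 2 sorted libraries Nepn, Cthrc1 and Tcf15 had at most 8 counts, so that these transcripts were met in the Prom1- gate and hardly in the others. Fam71a, with 183 counts against 3, lies 5479 bases downstream of Atf3 on the same strand. How reads running past the end of a gene were counted is not stated in the labels or headers.

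The genes farthest below the input were mostly of leukocytes, hepatocytes and red cells. Prss34, a basophil and mast cell protease gene, stood at 0.636 scaled CPM against 57.5 and was 90.4-fold lower (47.5 to 198), and Gpnmb, a gene of lipid-laden macrophages, stood at 0.989 against 55.7. The hemoglobin scavenger receptor gene Cd163 had 4 counts against 655. Abcb11, the bile salt export pump gene, stood at 4.94 against 128. The mucosal defence gene Dmbt1 stood at 37.5 against 818 and the macroglobulin genes Mug1 and Mug2 at 36.5 against 775 and 10.8 against 275; the last pair are near-identical and may share reads. Per kilobase the most abundant transcripts of the sorted cells were B2m, the class I light chain gene, at 5187 scaled CPM (2265 in the input), Spp1 at 4968 (1883) and Clu (clusterin) at 3300 (1930). Ccl21a at 2842 (24.6) and Ly6a, the gene of the stem cell antigen Sca-1 of arterial and other endothelium, at 2727 (249) were among the 10 highest in the sorted cells.

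Ratios moved with transcript length. Across 13128 protein-coding genes, which are not independent replicates and share both libraries, log2 ratio and union-exon length had a Spearman correlation of -0.245. The median log2 ratio was 0.48 in the shortest eighth (102 to 1959 bases) and -0.75 in the seventh (6785 to 9089 bases), and 14.9% and 2.37% of the genes there were called higher. The trend ran inside marker lists as well. Over 28 cholangiocyte markers the correlation with length was -0.74, with a median log2 ratio of 1.24 in the 14 shorter and -0.11 in the 14 longer genes, and over 20 sinusoidal markers it was -0.44, with medians of -0.94 and -1.65. Removal of the trend left part of this inside the lists, with correlations of -0.52 for cholangiocyte and -0.34 for sinusoidal markers, so a call that holds without the trend can still carry some of it. Over 11 mesothelial markers the correlation as scaled was -0.68, with medians of 2.67 in the 5 shorter and 1.65 in the 6 longer genes, and -0.34 after removal. As scaled it was -0.54 over 20 pan-endothelial markers (medians 0.31 and -0.83) and -0.26 over 15 arterial markers (1.88 and -0.18). It was -0.32 over 30 hepatocyte, -0.16 over 17 stellate and -0.18 over 18 venous and large-vessel markers. After the smooth trend was removed, 1422 genes (8.39%) were higher and 2813 (16.6%) lower; 497 of the higher and 637 of the lower calls were lost, and no called gene changed direction among the 416 called genes of the lists and named sets. Short ribosomal and housekeeping transcripts came from a median log2 ratio of 0.65 to 0.10, whereas the 13 mitochondrially encoded genes, of which 0 were called, went from -0.26 to -1.13 with 8 called lower.

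**Figure D5:**
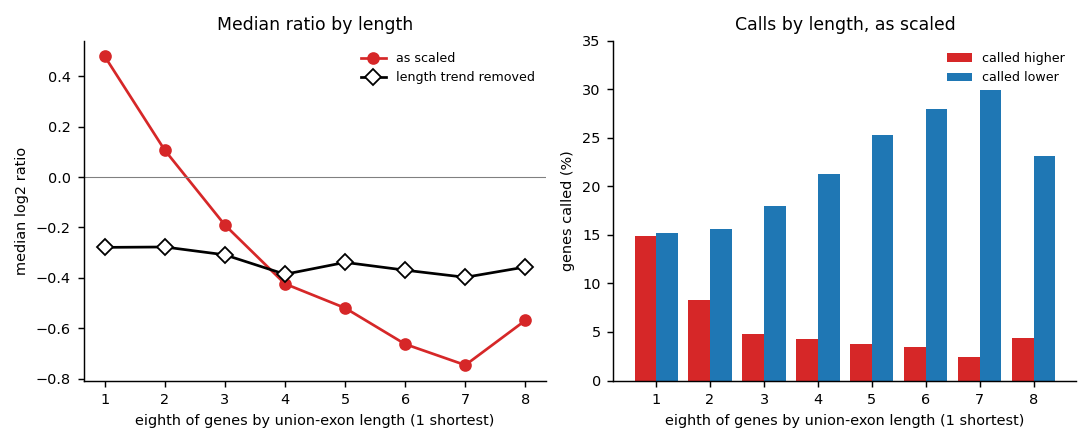
Left, median log2 ratio of 13128 protein-coding genes by eighth of union-exon length (x axis, 1 the shortest), as scaled and after removal of the length trend; right, the percentage of genes in each eighth called higher or lower as scaled. As scaled the median goes from 0.48 to -0.75 and the share called higher from 14.9% to 2.37% between the shortest and the seventh eighth.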

How the data were processed

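Polyadenylated RNA was sequenced as 4 libraries from a stranded kit, each from RNA of 2 mice, per the labels' protocols. The authors deposited estimated counts per gene, which were rounded to whole numbers here, and normalized values, which by their size are CPM with 1 added to each. The submitters' processing notes name TopHat2, Partek 3 and mm10. Neither the strand setting of the counting nor the annotation release was given in the sources used here. Of 41128 gene IDs in the files, 40254 matched the GENCODE annotation of mm10 used for names, coordinates and union-exon lengths. The column for CD45 was taken as the presorted CD45- cells.

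From the counts, scaled CPM were computed with factors from the trimmed mean of M values over the 4 libraries (edgeR 4.0.16, R 4.3.3). Each gene with at least 10 counts in either library was given a ratio with an exact 95% conditional binomial (Clopper-Pearson) interval and called where the whole interval lay beyond 2-fold. With 1 library a side there are no p-values. At this filter 256 genes had exactly 10 counts in the higher library and 252 just missed with 9; 117 genes were at 0 in the input and 270 in the sorted cells. The length trend was a lowess curve (span 0.3) through 13128 protein-coding genes with at least 50 counts. Python 3.11.15 with pandas 2.3.3, scipy 1.17.1 and statsmodels 0.14.6 was used. On simulated counts for this comparison over 17141 genes, 47 of 50 genes made 3-fold higher, 44 of 50 made 3-fold lower and all 100 made 6-fold different were called, with 2 of 16941 unchanged genes. These counts held Poisson error only, with the scaling factors known, and the changed genes had at least 50 counts in either real library. The interval assumes the same error, so the run checks the calculation. It gives no error rate for calls between single libraries of real cells.

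Named genes were drawn from the sorted genes and 5 markers, and from the 15 genes in each direction with the farthest near bound. From each list they were drawn from the called members of highest level per kilobase, with up to 3 that show a split. The 10 genes of highest level were a further source. Not all genes of these sets are named. Members named beyond these sets were chosen after their values were seen. The comparison, the lists and the tests were chosen with earlier results of these data known. Other scalings, including DESeq2 1.42.0 size factors, count minimums, call rules and the authors' own values were tried as alternatives. Some genes of the lists are not reported here.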

Additional observations from a re-analysis of the deposited data

How the results depend on the processing

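The 1698 higher and 3056 lower calls moved by over 1.5 times under some settings. Higher calls were 2992 with upper-quartile factors, 955 with at least 50 counts, 2847 by the point ratio alone and 631 with the interval beyond 4-fold. From the authors' deposited normalized values they were 2604, by a point ratio beyond 2-fold without an interval. Lower calls were 1833 with upper-quartile factors and 839 beyond 4-fold. Within 1.5 times, they were 4553 by the point ratio alone and 2107 by the point ratio of the authors' values. The like counts for the authors' values are thus the 2847 higher and 4553 lower by the point ratio alone. Under the other settings (library totals, DESeq2 size factors, factors from the 2 libraries, at least 1 count, length trend removed) the calls lay between 1422 and 2329 higher and between 2387 and 3056 lower. Leaving out genes below the 95th percentile of chemosensory genes (0.353 CPM sorted, 0.0450 CPM input) removed no call. The 10-count filter and the 2-fold bound already put called genes above it, so that setting is no check. The median log2 ratio over all genes, -0.16, was 0.03 with totals, 0.01 with DESeq2, 0.23 with upper-quartile factors and -0.02 with factors from the 2 libraries. Of 800 listed or named genes, 416 of them called, 0 called ratios changed direction under any setting. Calls start beyond 2-fold, a larger step than any of the shifts made by the scalings. A change of direction was thus hardly possible, and this count is no check of the calls. The medians of 7 of the 43 lists changed sign, or reached 0.00, under a scaling: Schwann cell, pan-endothelial, lymphatic, Notch, angiogenic, mitochondrially encoded and long housekeeping genes. No paired analysis was possible because each population has 1 library. No replicate could be left out for the same reason, and the spread between mice is unknown.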

Other observations

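Long housekeeping transcripts gave 2 higher calls (Utrn and Ahnak) and 3 lower calls (Myh9, Tln1 and Cltc) of 20. By gene class, 27 of 67 miRNA precursor genes (40.3%) and 84 of 510 antisense genes (16.5%) were called higher, against 1184 of 14895 protein-coding genes (7.95%). These are calls as scaled, and the classes were not counted again without the length trend. The part of transcript length in these shares was not tested.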
